A study of Mus musculus with 6 samples.

Results

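A set of 10 regulators that cells switch on quickly after growth signals or stress was followed in the hearts of mouse embryos with and without *Pkm1*. They are *Btg2* and *Btg1*, *Ier2* and *Ier5*, *Gadd45a*, *Gadd45b* and *Gadd45g*, *Myc*, *Maff* and *Rhob*. The genes were found by their symbols in the deposited table of read counts, which held all 10 among its 13809 genes, and all 10 were among the 13804 genes that passed the filter on low counts. The set was selected on measured values, namely the difference between knockout and wild-type hearts in these same libraries, so that difference is given as a description and with no p-value. Where these genes are counted as called, or an interval stands beside a fold change, it describes the fit over all genes and supports nothing about the set.

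The table came from ventricular tissue (heart in the sample labels) of mouse embryos at embryonic day 18.5 (E18.5), from 3 wild-type (WT) and 3 homozygous *Pkm1* knockout (KO) samples that the methods call biological replicates. *Pkm* encodes pyruvate kinase, and *Pkm1* is the splice form that carries an exon of its own. The KO allele is a small CRISPR/Cas9 deletion in that exon, which leaves a premature stop codon in the *Pkm1* transcript. It is a germline allele, present in every tissue and not in the heart alone, and it was made in zygotes of BDF1 mice, a hybrid of C57BL/6J and DBA/2. The labels list no treatment, and age was the same in both groups. The strain background of the sequenced embryos and the number of founder lines behind them are not given in the sources used here.

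Immediate early genes are transcribed within minutes of a stimulus, without new protein synthesis, and most of their mRNAs are short-lived. AP-1, Egr and Nr4a factors are the best known of them. The 10 genes described here were grouped more broadly, as rapidly induced growth and stress regulators outside those families. Whether each is an immediate early gene in these hearts was not tested. BTG1 and BTG2 restrain proliferation and recruit the deadenylase that shortens mRNA tails, the GADD45 proteins bind stress kinases and cell cycle regulators, and MYC drives growth and ribosome production. In the heart, genes of this kind respond to stretch and to growth-promoting hormones.

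Library totals ranged from 15567624 to 19875546 counts, so that 3 counts corresponded to 0.151 to 0.193 CPM (counts divided by the size of the library, on the usual scale of that unit). Below, CPM also carry TMM scaling, which sets the libraries to a common reference. WT c stood apart from the other WT libraries, with a chi-square per degree of freedom of 3.76 against WT a and 3.24 against WT b, where WT a against WT b gave 1.56 and the KO pairs 1.62 to 1.88. *Pkm* was at 1294, 1296 and 1366 CPM in the WT libraries and at 547, 530 and 549 CPM in the KO libraries, and these gene counts hold *Pkm1* and *Pkm2* transcripts together. Ribosomal RNA (*Rn45s*) made up 2.21% to 2.48% of WT counts and 2.70% to 2.79% of KO counts. *Xist*, the RNA of the inactive X chromosome, averaged 5.26 ± 0.50 CPM over the WT libraries and 2285 ± 47.6 CPM over the KO libraries (SD, n = 3). Each of the Y-linked genes *Kdm5d*, *Eif2s3y*, *Uty* and *Ddx3y* had at least 516 counts in all WT libraries and 0 counts in all KO libraries. The labels give no sex, and genotype and sex cannot be told apart in these libraries. All 10 early genes lie on autosomes.

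The tissue label was checked against marker lists. The summed level of 8 cardiomyocyte markers was 125974 to 129643 CPM in WT and 119050 to 120387 CPM in KO, and no marker of any list was at 0 counts in a library. The markers of endothelial cells summed to 1066 to 1071 CPM in WT and 993 to 1008 CPM in KO, and those of fibroblasts to 2675 to 2678 CPM and 2459 to 2502 CPM. Smooth muscle and pericyte markers summed to 761 to 793 CPM and 761 to 771 CPM, and those of macrophages and leukocytes to 33.2 to 36.3 CPM and 32.4 to 39.2 CPM. Epicardial markers summed to 111 to 115 CPM in WT libraries and 122 to 136 in KO libraries, and 3 erythroid markers to 33.5 to 35.5 CPM and 35.8 to 43.0 CPM. The largest relative shift was that of 6 atrial markers, with sums of 595 to 601 CPM in WT and 1006 to 1030 in KO. It lay in *Nppa* (means of 372 CPM in WT and 597 in KO), *Myl4* (142 and 305) and *Myl7* (46.3 and 77.7). The others, *Nr2f2* (27.8 and 29.0), *Stard10* (7.91 and 7.47) and *Nr2f1* (2.40 and 2.06), were not called in either direction. Calls are at an adjusted p under 0.05 in the fit over all genes, which called 15.7% of genes lower and 14.6% higher. In KO, 6 of the 8 cardiomyocyte markers were called lower and 1 higher, 3 of 6 endothelial and 3 of 7 fibroblast markers lower, 2 of 4 epicardial and 3 of 6 atrial markers higher. Smooth muscle and pericyte markers had 2 of 6 lower and 1 higher, erythroid markers 1 of 3 lower and 1 higher, and macrophage and leukocyte markers 1 of 6 lower. *Sln*, *Hba-a1*, *Hbb-bt* and *Hbb-bs* were not analysed here. The part of these shifts in the levels of the early genes was not tested. In bulk tissue, fewer cells of a type and less RNA per cell cannot be told apart.

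The promoters of 4 of the genes are shown because these genes span the range of the difference between the genotypes. *Btg2* had the largest, *Gadd45g* the second, *Ier5* an intermediate one and *Gadd45a* none beyond the spread of its libraries. Each window runs 5′ to 3′ from 250 bases before the transcription start to 50 bases after it, from the RefSeq promoter table on GRCm38.p6. The windows are chr1:134079106-134079405 on the minus strand for *Btg2*, chr13:51846425-51846724 on the plus strand for *Gadd45g*, chr1:155099587-155099886 on the minus strand for *Ier5* and chr6:67037358-67037657 on the minus strand for *Gadd45a*. Capitals mark the CCAAT box on either strand (ATTGG when it lies on the other strand), the cAMP response element TGACGTCA and the TATA box TATAAA.
Btg2: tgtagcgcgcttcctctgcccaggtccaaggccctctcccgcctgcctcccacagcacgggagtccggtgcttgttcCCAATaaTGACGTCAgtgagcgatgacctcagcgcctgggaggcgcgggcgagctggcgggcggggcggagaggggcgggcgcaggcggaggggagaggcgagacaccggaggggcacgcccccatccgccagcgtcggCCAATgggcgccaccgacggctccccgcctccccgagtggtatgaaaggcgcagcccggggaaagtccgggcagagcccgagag
Gadd45g: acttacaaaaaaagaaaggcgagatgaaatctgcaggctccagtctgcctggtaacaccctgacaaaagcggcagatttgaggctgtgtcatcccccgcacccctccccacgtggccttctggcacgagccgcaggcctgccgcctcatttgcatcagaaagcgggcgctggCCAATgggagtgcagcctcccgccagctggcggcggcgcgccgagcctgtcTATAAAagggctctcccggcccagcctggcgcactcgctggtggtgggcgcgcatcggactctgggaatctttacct
Ier5: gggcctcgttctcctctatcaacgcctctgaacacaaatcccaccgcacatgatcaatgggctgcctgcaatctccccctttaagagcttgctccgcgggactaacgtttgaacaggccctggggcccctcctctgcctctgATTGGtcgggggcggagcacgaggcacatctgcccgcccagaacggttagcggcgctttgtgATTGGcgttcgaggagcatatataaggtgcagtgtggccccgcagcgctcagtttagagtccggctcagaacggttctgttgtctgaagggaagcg
Gadd45a: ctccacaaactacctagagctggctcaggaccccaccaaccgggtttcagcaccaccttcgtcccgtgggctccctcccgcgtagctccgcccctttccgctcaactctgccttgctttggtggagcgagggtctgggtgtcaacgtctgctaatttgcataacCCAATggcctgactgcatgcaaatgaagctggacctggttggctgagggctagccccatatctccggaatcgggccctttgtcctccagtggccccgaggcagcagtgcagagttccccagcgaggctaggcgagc

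Of the 10 genes, 8 had a window in this table, and *Maff* had 3. *Ier2* and *Myc* had none, so their promoters were not searched. CCAAT, the motif of the NF-Y complex, was found in the windows of 7 of the 8 genes, all but *Maff*, and in 37.4% of 32851 promoters of the same length. The *Btg2* window held it at -173 to -169 and at -34 to -30 from the start. The cAMP response element, the motif of the CREB and ATF factors, was found in *Btg2* at -166 to -159 and in *Maff* at -29 to -22, against 1.79% of all promoters. Its core TGACG, which overlaps it, was also in *Btg1* and was in 20.8% of all promoters. TATAAA was found in *Btg1*, *Gadd45b* and *Gadd45g* (13.6% of all promoters), and it lay at -27 to -22 in *Gadd45g*. GGGCGG, the GC box bound by Sp factors, was in 7 of the 8 genes, all but *Gadd45g*, and in 35.7% of all promoters. The E-box CACGTG, which MYC with MAX can bind, was in *Gadd45b*, *Gadd45g* and *Maff* (7.15% of all promoters). The p53 decamer was found in *Ier5* and *Gadd45a* (8.36%). Neither the CArG box of serum response factor (1.63%) nor the AP-1 site TGANTCA (7.81%) was in any of the 8 genes within these windows. Both strands were searched. A gene was counted when any of its windows held the motif, while the shares are per promoter and not limited to the genes tested. The counts and shares are thus unlike, and enrichment was not tested. The *Btg2* window was 72.0% G or C and that of *Ier5* 59.0%, against a median of 52.7% over all promoters. The *Maff* windows were at 50.3%, 61.3% and 59.7%.

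Levels were compared between genes per kilobase of exon. In WT hearts, *Btg2* at 53.9 ± 2.15 CPM per kb (SD, n = 3) and *Rhob* at 52.3 ± 1.31 CPM per kb led the order, and their libraries overlapped. *Gadd45g* followed at 26.0 ± 3.92 and overlapped *Btg1* at 25.1 ± 0.857 CPM per kb. *Myc* at 19.99 ± 0.905 overlapped *Ier2* at 18.2 ± 1.03 CPM per kb. Below these came *Ier5* at 15.9 ± 1.28, *Maff* at 7.38 ± 0.136, *Gadd45b* at 6.39 ± 0.702 and *Gadd45a* at 0.602 ± 0.0870 CPM per kb, each without overlap with the next. In KO hearts *Rhob* led at 35.7 ± 1.33 CPM per kb and *Btg1* was next at 19.2 ± 0.954. *Btg2* was in the fourth place at 9.27 ± 0.0915 CPM per kb, within a run from *Ier2* at 9.76 ± 0.428 to *Ier5* at 7.79 ± 0.425 in which each gene overlapped the next.

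**Figure D1:**
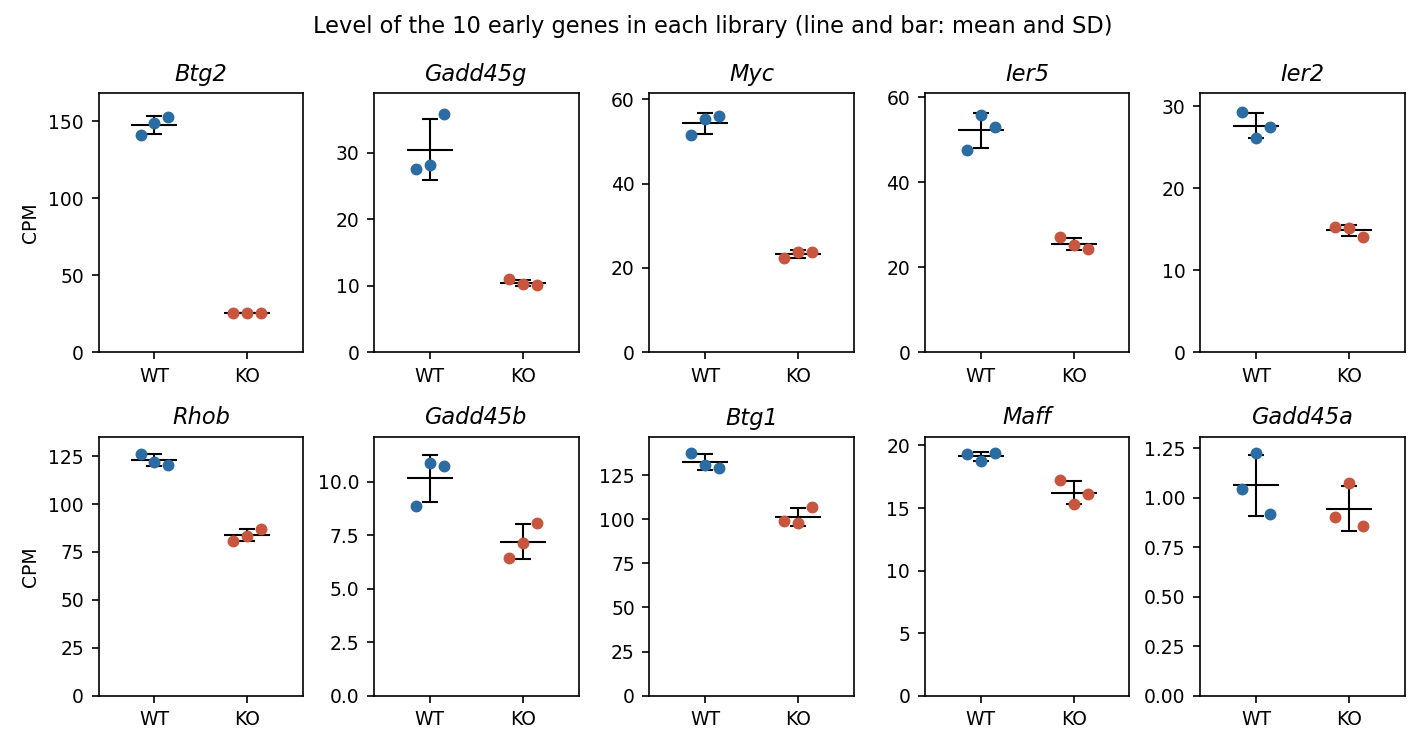
Level of each of the 10 early genes in CPM (vertical axes, linear, each from 0) in the 3 WT and 3 KO libraries. Points are libraries and the bars are the mean and SD of 3 libraries. The genotypes overlap for *Gadd45a* alone, and *Btg2* shows the widest gap, from 141 to 153 CPM in WT against 25.2 to 25.7 in KO.

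All 10 genes had a lower mean in KO than in WT, and 9 of them were among the genes that the fit over all genes called lower (edgeR, quasi-likelihood, Benjamini-Hochberg adjusted p under 0.05), with 0 higher. Over all genes tested 15.7% were called lower and 14.6% higher. No overlap between the genotypes, with every KO library under every WT library, was seen for 9 of the 10 genes and for 21.4% of all genes (21% had every KO library above). A decrease of at least 1.5-fold was called for 5 of the 10, against 3.2% of all genes lower and 2.99% higher by that much. The choice of the genes rests on this contrast, so the counts carry no evidence of their own and nothing is read from them. Together the 10 genes summed to 598 ± 7.61 CPM in WT hearts and to 309 ± 6.71 CPM in KO hearts (SD, n = 3). Their median log2 fold change, KO against WT, was -0.72, and that of all genes tested was 0.0017.

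*Btg2*, an antiproliferative gene and a target of p53, lies on chromosome 1, bases 134075170 to 134079120, minus strand (GRCm38) and has 2 exons. It was at 141, 149 and 153 CPM in the WT libraries and at 25.3, 25.7 and 25.2 CPM in the KO libraries. The KO libraries lay within 1 CPM of each other, closer than counting error alone at 407 to 478 counts. The ratio of the lowest WT to the highest KO library was 5.50. The KO mean, 25.4 ± 0.251 CPM, was 17.2% of the WT mean of 148 ± 5.88 CPM (SD, n = 3), and the log2 fold change was -2.54 (standard error 0.0492, 95% interval -2.64 to -2.44). Only 17 of the 13804 genes tested had a lower log2 fold change.

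*Btg1*, its closest relative, lies on chromosome 10, bases 96617006 to 96622809, plus strand. It was at 137, 131 and 129 CPM in WT and at 98.9, 97.9 and 107 CPM in KO. The groups did not overlap, with a ratio of 1.20 between the lowest WT library and the highest KO library. The log2 fold change was -0.39 (standard error 0.0421, 95% interval -0.47 to -0.30), which did not reach 1.5-fold. As a share of their joint level per kb, *Btg2* held 66.4%, 68.6% and 69.5% in the WT libraries and 33.0%, 33.6% and 31.2% in the KO libraries. In WT the larger part of the pair was thus *Btg2*, and in KO it was *Btg1*, at 67.4 ± 1.24% (SD, n = 3).

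The GADD45 genes encode small stress-induced proteins that bind p38 and JNK kinase activators, p21 and PCNA. *Gadd45g*, on chromosome 13, bases 51846678 to 51848468, plus strand, was at 27.6, 28.2 and 35.8 CPM in WT and at 10.97, 10.2 and 10.1 CPM in KO. One WT library stood above the other two, and every KO library was far below all of them, with the lowest WT library at 2.51 times the highest KO library. The log2 fold change was -1.54 (standard error 0.0951, 95% interval -1.73 to -1.34), and the KO mean was 34.2% of the WT mean. *Gadd45b*, on chromosome 10, bases 80930073 to 80932204, plus strand, was at 8.86, 10.9 and 10.7 CPM in WT and at 6.41, 7.14 and 8.05 CPM in KO. The nearest libraries of the groups were 1.10 times apart, and the log2 fold change was -0.50 (standard error 0.119, 95% interval -0.74 to -0.25).

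*Gadd45a*, on chromosome 6, bases 67035096 to 67037457, minus strand, was the lowest of the 10 genes, with 14 to 24 counts per WT library and 16 to 17 per KO library. It was at 1.04, 1.22 and 0.920 CPM in WT and at 0.901, 1.07 and 0.859 CPM in KO, and the groups overlapped. Its log2 fold change was -0.19 with a 95% interval from -0.82 to 0.44, so that neither a fall like that of *Gadd45b* nor no change lay outside the interval at this depth. Its exons overlap the antisense transcript *E230016M11Rik* by 337 bases. Whether the authors' counting used strand is not given in the sources used here, and reads of the overlap may have gone to either gene.

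Per kb, *Gadd45g* made up 78.7 ± 2.37% (SD, n = 3) of the summed GADD45 level in WT and 63.8 ± 3.25% in KO. The share of *Gadd45b* was 19.4 ± 2.00% in WT and 32.4 ± 3.32% in KO, and that of *Gadd45a* was 1.86 ± 0.427% and 3.84 ± 0.507%. The WT and KO libraries did not overlap in any of these shares. Because the shares are parts of a whole, the lower *Gadd45g* level in KO raises those of the others, so the separation is no separate result. The level of *Gadd45a* itself overlapped between the genotypes.

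**Figure D2:**
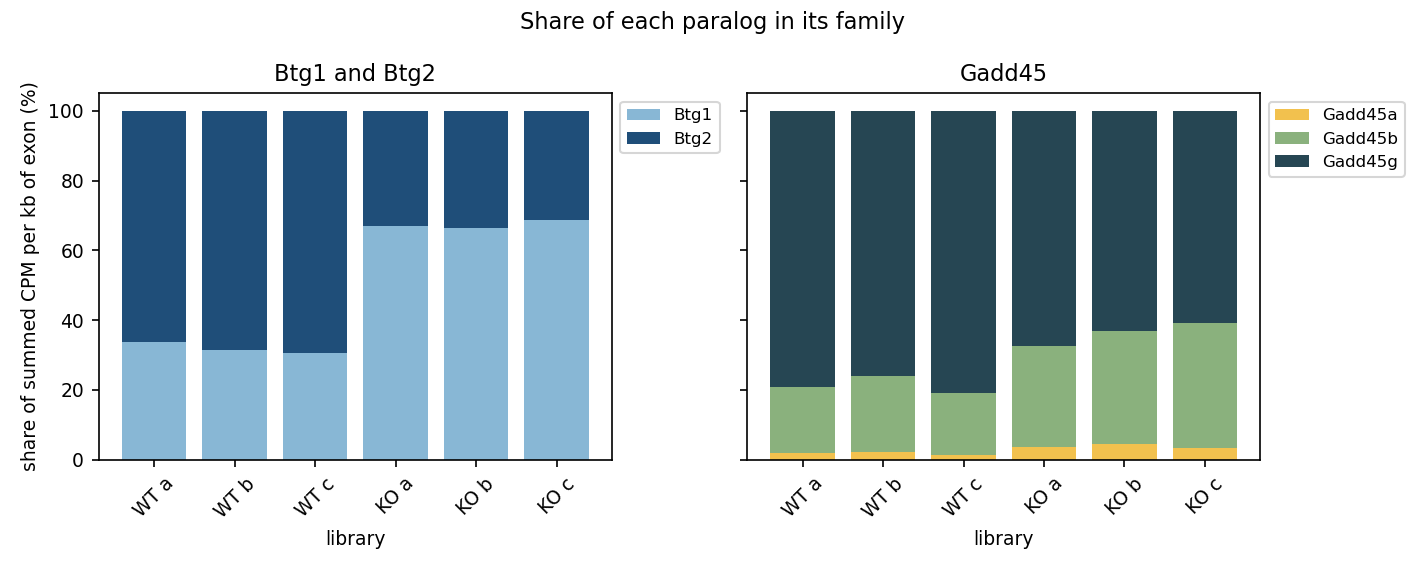
Share of each paralog in the summed CPM per kb of exon (vertical axis, percent) in the 6 libraries, for *Btg1* and *Btg2* on the left and the GADD45 genes on the right. Each bar is 1 library. *Btg2* drops from 66.4% or more in WT to 33.6% or less in KO, and *Gadd45g* from 76.1% or more to 67.3% or less.

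*Ier2* and *Ier5* are single-exon genes that encode related nuclear proteins of the immediate early response, and IER5 takes part in activation of the heat shock factor HSF1. *Ier2*, on chromosome 8, bases 84661331 to 84662852, minus strand, was at 29.3, 26.2 and 27.5 CPM in WT and at 15.3, 15.2 and 14.1 CPM in KO. Its log2 fold change was -0.89 (standard error 0.0760, 95% interval -1.05 to -0.74). *Ier5*, on chromosome 1, bases 155096361 to 155099636, minus strand, was at 47.6, 55.8 and 53.1 CPM in WT and at 27.0, 25.3 and 24.3 CPM in KO, with a log2 fold change of -1.03 (standard error 0.0657, 95% interval -1.17 to -0.90). Neither gene's groups overlapped, and the ratio of the lowest WT to the highest KO library was 1.71 for *Ier2* and 1.76 for *Ier5*. *Ier2* held 53.3 ± 3.42% (SD, n = 3) of their joint level per kb in WT and 55.6 ± 0.675% in KO, and the libraries overlapped.

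*Myc*, the growth-promoting transcription factor, lies on chromosome 15, bases 61985391 to 61990374, plus strand. It was at 51.5, 55.4 and 56.0 CPM in WT and at 22.3, 23.9 and 23.9 CPM in KO, with no overlap and a ratio of 2.16 between the lowest WT and the highest KO library. The WT mean was 54.3 ± 2.46 CPM and the KO mean 23.3 ± 0.937 CPM (SD, n = 3), and the log2 fold change was -1.22 (standard error 0.0606, 95% interval -1.34 to -1.09).

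*Maff*, a small MAF factor that lacks a transactivation domain and works as a dimer, lies on chromosome 15, bases 79346621 to 79359076, plus strand. It was at 19.3, 18.7 and 19.4 CPM in WT and at 17.2, 15.3 and 16.2 CPM in KO. The groups did not overlap, but the nearest libraries were only 1.09 times apart, and the log2 fold change was -0.23 (standard error 0.0792, 95% interval -0.40 to -0.07). The fit over all genes no longer listed it as lower with DESeq2, without WT a, without KO b and without KO c, at log2 fold changes of -0.23, -0.23, -0.20 and -0.23.

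*Rhob*, which encodes a small GTPase of endosomes and the cytoskeleton, is a single-exon gene on chromosome 12, bases 8497661 to 8500009, minus strand. It was at 126, 122 and 120 CPM in WT and at 80.8, 83.5 and 87.1 CPM in KO. The groups did not overlap, with a ratio of 1.38 between their nearest libraries, and the log2 fold change was -0.55 (standard error 0.0416, 95% interval -0.64 to -0.47). Without WT c, the WT library that stood apart, the log2 fold changes were -2.52 for *Btg2*, -0.40 for *Btg1*, -0.90 for *Ier2*, -1.02 for *Ier5*, -0.28 for *Gadd45a*, -0.46 for *Gadd45b*, -1.42 for *Gadd45g*, -1.20 for *Myc*, -0.22 for *Maff* and -0.57 for *Rhob*.

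**Figure D3:**
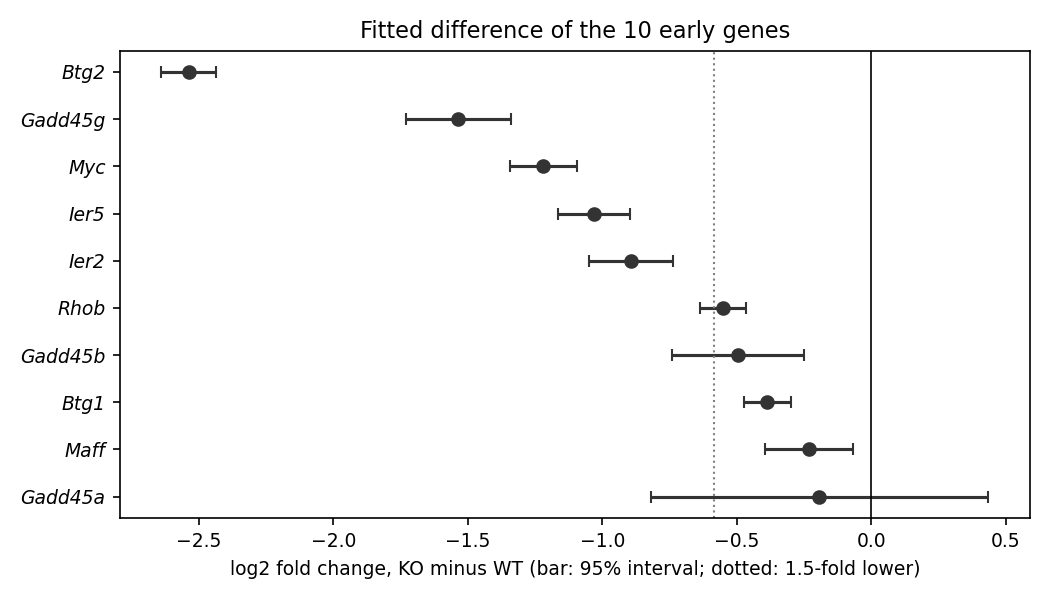
Log2 fold change (horizontal axis, KO against WT) of the 10 early genes with 95% intervals from edgeR's fit, 3 libraries per genotype. Estimates run from -2.54 for *Btg2* to -0.19 for *Gadd45a*, whose interval is the one that crosses 0.

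The spread among libraries of a genotype was small against most of these differences. The coefficient of variation lay between 1.84% (*Maff*) and 15.1% (*Gadd45g*) in WT and between 0.987% (*Btg2*) and 12.1% (*Gadd45a*) in KO. The lowest of these values are below counting error alone, with 295 to 367 *Maff* counts per WT library and 407 to 478 *Btg2* counts per KO library. They therefore do not measure the spread between hearts. WT a was the highest WT library for 3 of the 10 genes, WT b for 3 and WT c for 4, and KO a, b and c were the lowest KO library for 3, 2 and 5 genes.

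The 10 genes are short. Each has at most 4 exons in its longest transcript, as do 21.2% of the 13025 protein-coding genes tested, and 9 of the 10 span less than 6 kb, as do 13.1%. *Maff*, with 12456 bases, is the exception. Both limits were set after the genes' structures were seen. Among the 1063 other protein-coding genes with at most 4 exons and under 6 kb, 203 (19.1%) were called lower in KO and 134 (12.6%) higher, against 15.7% and 14.6% of all genes. The pentamer ATTTA, the core of AU-rich elements that mark unstable mRNAs, was present in the 3′ untranslated region of 7 of the 10 genes and of 70.6% of protein-coding genes. *Myc* held 4.29 copies per kb, *Gadd45a* 3.55, *Maff* 3.28, *Rhob* 2.90, *Btg1* 2.64 and *Btg2* 2.27, against a median of 1.37 over 12610 genes. In number, *Myc* and *Gadd45a* each held 2 copies, in regions of 466 and 563 bases. The median over protein-coding genes was also 2 copies, with a median region of 1216 bases. *Ier5* held 0.933 per kb, and *Ier2*, *Gadd45b* and *Gadd45g* none.

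The genes that work with the 10 early genes were counted in 9 lists, which hold 125 tested genes. Of these, 40 were called lower and 17 higher, against 15.7% and 14.6% of all genes. All 13 genes of the AP-1, Egr and Nr4a list, which were known to fall when it was drawn up, are among the 40. Without that list 27 of 112 genes (24.1%) were lower and 17 (15.2%) higher. The other lists were also chosen with earlier results of these data known, so these counts carry no evidence of their own. The 17 became 10 with DESeq2 or without WT a and 11 without KO a. In the list of BTG and TOB proteins and of the deadenylase subunits they bind, 4 of 18 genes were lower and 3 higher, with a median log2 fold change of 0.02. *Tob2*, a relative of the BTG genes, was at 61.5, 61.4 and 59.3 CPM in WT and at 37.9, 38.8 and 37.9 CPM in KO, a log2 fold change of -0.67 (adjusted p = 8.35e-11, from the quasi-likelihood fit of edgeR over all genes, as are the adjusted p-values that follow). *Tob1* fell by 0.26 on the log2 scale (adjusted p = 3.53e-05). *Rqcd1*, now named *Cnot9*, a subunit of the CCR4-NOT deadenylase, was higher in KO, at 40.5 ± 0.856 against 32.1 ± 3.21 CPM (SD, n = 3; adjusted p = 2.28e-04). Without KO a, 2 genes of this list were lower in place of 4.

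Of 8 factors that bind AU-rich mRNA, 2 were lower and 2 higher. *Zfp36*, which encodes tristetraprolin, a decay factor and itself an immediate early gene, was at 49.3, 52.6 and 59.8 CPM in WT and at 18.2, 16.3 and 19.1 CPM in KO. Its log2 fold change was -1.58 (adjusted p = 2.05e-15). *Tial1* and *Tia1*, which encode translational repressors, rose by 0.23 and 0.22 on the log2 scale (adjusted p = 3.04e-04 and 8.21e-04).

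Among 13 partners of GADD45 and stress kinases, 1 was lower and 1 higher. *Cdkn1a*, which encodes the cell cycle inhibitor p21, fell by 0.57 on the log2 scale, with means of 44.1 ± 2.07 CPM in WT and 29.8 ± 2.76 in KO (SD, n = 3, adjusted p = 1.81e-07). *Mapk14*, which encodes p38α, rose by 0.21 (adjusted p = 0.0014). Without WT c, 3 genes of this list were lower. Of 5 genes of the IER family and its partners, 2 were lower and 1 higher. *Ier3* fell from 39.6 ± 0.647 to 25.8 ± 0.423 CPM (SD, n = 3 each, adjusted p = 7.29e-09). *Ppp2r2a*, a regulatory subunit of protein phosphatase 2A, fell by 0.17 (adjusted p = 0.00443). *Ier5l* had a log2 fold change of 0.39 (adjusted p = 0.0468), and its call was kept under 9 of 16 other settings. Without WT a, WT b, KO a or KO b it was lost, at 0.29 to 0.39.

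Of 14 genes of the dimerization network and turnover of MYC, 5 were lower and 2 higher, with a median log2 fold change of -0.12. The 2 called higher became 1 with DESeq2 and without WT a, KO a or KO b, and 3 without WT c. At an unadjusted p under 0.05, 8 genes of this network were lower and 2 higher. *Usp28*, a deubiquitinase that stabilizes MYC, fell by 0.28 (adjusted p = 2.05e-07), and the MAX partners *Mxd1* and *Mxd4* fell by 0.27 and 0.26 (adjusted p = 0.0117 and 0.0105), the call of *Mxd4* being lost without WT b at -0.19. Of 24 MYC target genes of ribosome production and metabolism, 8 were higher and 0 lower by edgeR's quasi-likelihood test. At an unadjusted p under 0.05, 12 were higher and 1 lower, and DESeq2 called 4 higher and 0 lower. The median log2 fold change of these targets was 0.07. *Polr1b*, a subunit of RNA polymerase I, rose by 0.34 (adjusted p = 0.00328), and *Srm* and *Cad*, enzymes of polyamine and pyrimidine synthesis, each rose by 0.25 (adjusted p = 0.0171 and 5.58e-04). The call of *Srm* was lost with DESeq2 and without WT a, WT b, KO a or KO c, at 0.19 to 0.25. Without WT a 4 of these targets were higher, without KO a 5 and without KO c 4, and without WT c 1 was lower.

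Of 9 MAF and CNC factors, which share dimers with MAFF, 3 were lower and 0 higher, also at an unadjusted p under 0.05 and with DESeq2. *Mafk*, a small MAF factor like *Maff*, was at 46.9, 51.7 and 52.0 CPM in WT and at 24.1, 22.9 and 23.2 CPM in KO. Its log2 fold change was -1.10 (adjusted p = 1.15e-13), against -0.23 for *Maff*, and *Mafg*, the third small MAF gene, had a log2 fold change of 0.13 (adjusted p = 0.253). *Mafg* is named because it completes this family. *Nfe2l2*, which encodes NRF2, fell by 0.41 (adjusted p = 2.18e-07), and *Nfe2l1* by 0.20 (adjusted p = 8.87e-05).

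Of 22 genes of the p53 pathway and its targets, 11 were lower and 0 higher, against 15.7% and 14.6% of all genes. *Cdkn1a*, counted above with the partners of GADD45, is also among the 11. An unadjusted p under 0.05 was reached by 12 in the lower direction and 0 in the other, and DESeq2 called 9 lower and 0 higher. The death receptor gene *Fas* had a log2 fold change of -1.22 (adjusted p = 1.40e-04), and the BH3-only genes *Pmaip1* and *Bbc3* had -0.93 (adjusted p = 0.0129) and -0.72 (adjusted p = 7.75e-04). All were at low levels, with means of 2.97 CPM in WT and 1.28 in KO for *Fas*, 1.70 and 0.891 for *Pmaip1*, and 6.18 and 3.72 for *Bbc3*. The call of *Pmaip1* was lost with DESeq2 and without KO c, at -0.94 and -0.82. The median of this list was -0.14, and without KO c 7 of its genes were lower.

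The classic early genes were the lists' extreme. All 13 tested AP-1, Egr and Nr4a genes were lower in KO and 0 higher, also at an unadjusted p under 0.05 and with DESeq2, with a median log2 fold change of -2.17. *Fos* was at 49.2, 49.1 and 50.5 CPM in WT and at 2.12, 4.04 and 3.11 CPM in KO, a log2 fold change of -4.02 (adjusted p = 3.37e-21). *Nr4a3* and *Atf3* had log2 fold changes of -3.29 and -3.12 (adjusted p = 1.40e-20 and 6.43e-21). These genes were known to fall when the list was drawn up, so the list adds no independent evidence of a direction.

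**Figure D4:**
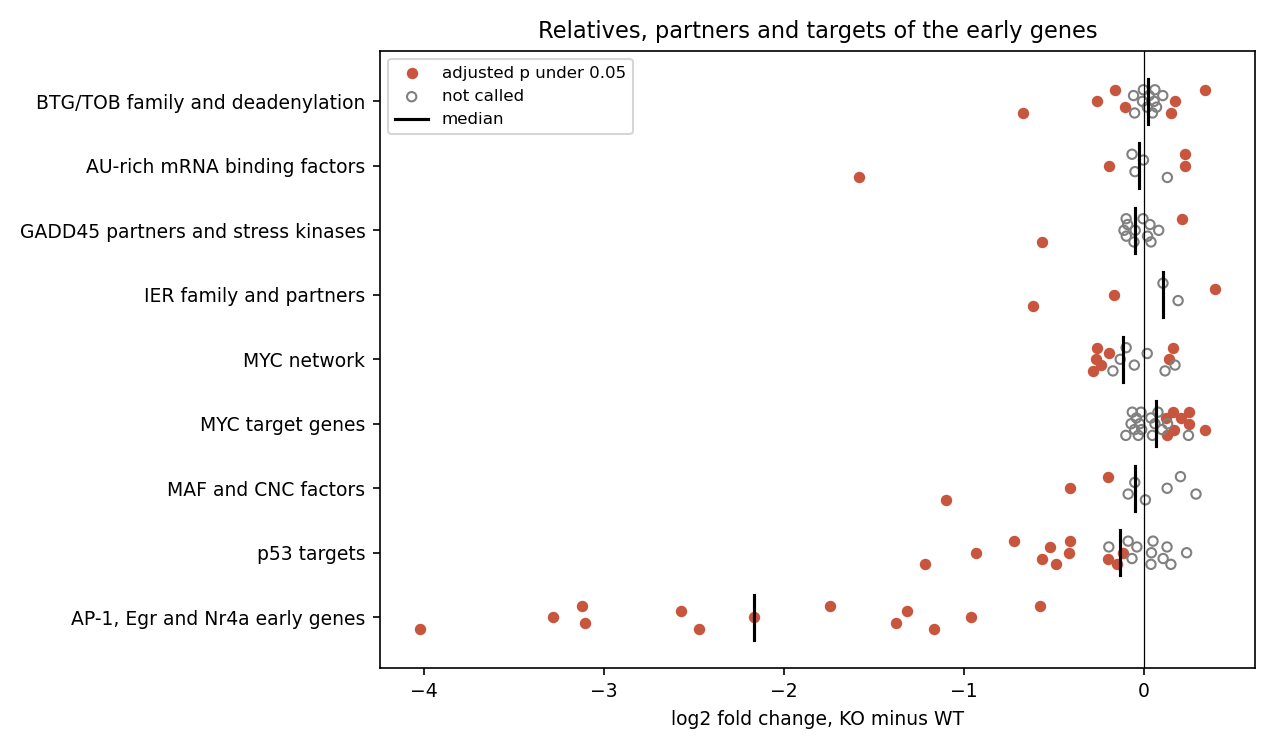
Log2 fold change (horizontal axis, KO against WT) of every tested gene of the 9 lists (rows), 1 point per gene, filled where the adjusted p was under 0.05. The AP-1, Egr and Nr4a genes extend to -4.02, and the MYC target genes stay between -0.10 and 0.34.

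For each early gene, the 3 genes with the most similar pattern were taken from the 13498 genes whose mean reached 1 CPM, by the root mean square distance of centred log2 CPM over the 6 libraries. Since libraries of both genotypes enter the distance, a close match shares the difference between them. For *Btg2* they were *Nr4a1* (distance 0.0508), *Cyr61* (0.0532) and *Egr1* (0.0602), and *Nr4a1* averaged 168 ± 8.87 CPM over WT and 30.3 ± 0.432 CPM over KO (SD, n = 3). For *Myc* they were *Jun* (0.0493), *Cited2* (0.0505) and *Cebpd* (0.0576). For *Gadd45g* they were *Lmod2* (0.0905), *Zfp36* (0.0907) and *Klf9* (0.104). *Lmod2*, an actin filament gene of the sarcomere, averaged 298 ± 15.7 CPM over WT and 97.8 ± 1.53 CPM over KO (SD, n = 3). For *Ier5* they were *Mafk* (0.0551), *Isg15* (0.0663) and *Malt1* (0.0715). For *Ier2* they were *Slc10a1*, *A930016O22Rik* and *Kcna5*, and for *Btg1* they were *Spsb1*, *C1qtnf1* and *Gcnt2*, at distances from 0.0246 to 0.0354. For *Gadd45b*, the nearest were the X-linked *Mtap7d3* and *Nsdhl* and then *Arhgef19*, and for *Gadd45a* they were *Ell2*, *Fam124b* and *St8sia4*. For *Maff* they included *Uaca* and *Fads2*, and for *Rhob* they were *Frmd6*, *Hymai* and *Adamtsl4*.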

How the data were processed

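Total RNA was depleted of ribosomal RNA (KAPA RiboErase and HyperPrep kits) and sequenced with paired ends. The submitters' processing notes name cutadapt 1.18, HISAT2, StringTie and the mm10 build. The counting program is not given in the sources used here. The authors deposited unnormalized read counts for each gene symbol, beside columns of their own edgeR comparison (log fold change, mean log CPM, p-value and false discovery rate), which were not used. Column names show the genotype alone, and libraries were named a to c by column order.

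Counts were filtered (filterByExpr), scaled by TMM and tested with edgeR 4.0.16 (quasi-likelihood, genotype only, Benjamini-Hochberg) in R 4.3.3, and the pipeline was tested on simulated data. P-values set the difference between the genotypes against the spread between these libraries, and limits at 3 counts cover counting error only. The early genes, the lists and the alternatives were chosen with earlier results of these data known. Named genes were all 10 early genes. For each list, up to 3 called genes with the largest absolute log2 fold change and a mean of at least 1 CPM were named. The 3 nearest patterns per early gene (prior count 2), the 6 atrial markers and the checks of sex and *Pkm* were also named. Of 13809 symbols, 13299 matched GENCODE M21 (GRCm38) by symbol, 420 through RefSeq and 72 through RefSeq for the chromosome alone, and 18 did not match. Exon lengths are unions over transcripts. In the lists, *Btg3*, *Btg4*, *Mycl*, *Fosl1* and *Egr4* were not analysed here. A further list and 1 nearest pattern of *Maff* are not reported here. Alternatives were RLE factors, TMM without *Rn45s*, no filter, at least 10 counts in every library, edgeR's likelihood ratio and exact tests, DESeq2 1.42.0, limma 3.58.1 voom, each library left out, WT a and WT b summed, and genes on X and Y left out. Figures were drawn with matplotlib 3.10.9.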

Additional observations from a re-analysis of the deposited data

How the results depend on the processing

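Over 16 alternatives, the 10 early genes kept a lower mean in KO, a direction fixed by their choice. The fit no longer listed *Maff* as lower with DESeq2 and without WT a, KO b or KO c, at log2 fold changes of -0.23, -0.23, -0.20 and -0.23. The log2 fold change of *Btg2* stayed between -2.57 and -2.52 and that of *Gadd45a* between -0.28 and -0.07. Without 1 library at a time, 8 to 9 early genes were called lower, 1704 to 2306 of all genes were lower and 1479 to 2013 higher, and 35 to 45 list genes were lower and 10 to 21 higher. The count of list genes called higher, 17, was 10 with DESeq2, 10 without WT a and 11 without KO a, where the cause was not tested. DESeq2 called 1639 of all genes lower and 1362 higher. With the longest transcript in place of the exon union, *Gadd45g* held 60.5% of the GADD45 level in KO. With a prior count of 0.5, the 3 nearest patterns stayed the same for all early genes except *Ier5* and *Gadd45a*, which kept 2 of 3. The block on replicate numbers was not run. No paired analysis was possible because column names show the genotype alone. Depth limits *Gadd45a*, at 14 to 24 counts per library. Genotype and sex could not be told apart under any setting.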
